A study of Rattus norvegicus with 49 samples.

Results

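The T cell and NK cell markers Cd3d, Cd3e, Cd3g, Cd8a, Cd2, Cd5, Klrd1, Il2rb, Prf1 and Ccl5 were followed in rat liver, 10 of the 14217 genes that the array measured by a probe set annotated with a single symbol. Each gene was read from 1 probe set, the one with the highest mean where there were several, which was the case for Cd3e and Cd8a. The livers came from male Sprague-Dawley rats, about 8 to 10 weeks old at the start, sampled after 14 or 4 days of feeding. Group 1 ate ad libitum and was not fasted. Group 2 ate ad libitum and was fasted overnight, and groups 3, 4 and 5 received 15%, 30% and 60% less powdered feed and were fasted overnight too. The fasting follows the sample labels, since the text on the series has every animal fasted. Each group and day had 5 rats with 1 array each, except group 1 at day 14 with 4, which made 49 arrays. The rats were housed together in pairs or groups, and the labels do not say which rats shared a cage.

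T cells carry the T cell receptor, whose signal is passed into the cell by the CD3 chains, while NK cells recognise stressed or infected cells without that receptor. The liver is rich in both, and its sinusoids hold a large resident population of NK cells and cytotoxic T cells that kill through perforin and granzymes. Interleukin 2 and interleukin 15 keep these cells alive through a receptor that shares the beta chain Il2rb, and activated cells release the chemokine Ccl5. In the rat, CD8 alpha is carried by NK cells as well as by cytotoxic T cells.

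The main difference was found after 14 days of the most severe restriction. In group 5 at day 14, the transcripts of perforin (Prf1) and of the chemokine Ccl5 were at 0.635 and 0.637 times their level in group 2. Cd8a, Klrd1 and Il2rb were called as lower as well, beside 10.9% of all genes. The calls of Klrd1 and Il2rb were lost for 6 and 8 of the 10 arrays when these were left out 1 at a time. The 3 CD3 chains, Cd2 and Cd5 passed the test in none of the 19 comparisons. At day 4, no member passed the test in any diet group against group 2, beside 0.253% to 21.3% of all genes. The differences of group 5 at day 14 and day 4 were not shown to differ. A test of that change with day called 0 of 10 members, beside 2.04% of all genes.

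The upstream sequences of 2 genes that were lower in group 5 at day 14, Prf1 and Cd8a, and of 1 that did not pass the test, Cd2, are shown to give the windows in which short motifs were counted. They are the 250 bases before the annotated start in the RefSeq annotation of GRCr8, written 5′ to 3′ on the strand of the gene, with motif matches in capitals. The Prf1 window is chr20:29788790-29789039 on the plus strand, the Cd8a window is chr4:104923866-104924115 on the plus strand, and the Cd2 window is chr2:191412660-191412909 on the minus strand.
Prf1: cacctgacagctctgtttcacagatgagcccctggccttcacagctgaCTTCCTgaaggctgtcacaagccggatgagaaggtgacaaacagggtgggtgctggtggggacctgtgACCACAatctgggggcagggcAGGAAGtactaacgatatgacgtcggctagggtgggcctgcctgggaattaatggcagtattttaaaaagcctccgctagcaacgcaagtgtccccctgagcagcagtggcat
Cd8a: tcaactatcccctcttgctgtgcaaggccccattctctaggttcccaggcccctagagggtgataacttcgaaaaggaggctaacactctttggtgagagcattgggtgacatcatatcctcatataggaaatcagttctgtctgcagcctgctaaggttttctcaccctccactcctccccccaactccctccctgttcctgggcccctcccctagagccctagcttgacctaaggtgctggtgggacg
Cd2: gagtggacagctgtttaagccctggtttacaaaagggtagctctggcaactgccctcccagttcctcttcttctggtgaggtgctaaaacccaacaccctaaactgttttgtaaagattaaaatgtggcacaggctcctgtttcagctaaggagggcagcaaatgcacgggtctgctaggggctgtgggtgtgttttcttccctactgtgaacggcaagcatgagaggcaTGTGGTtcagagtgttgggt

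The RefSeq table held a window for 7 of the 10 members, and Klrd1, Il2rb and Ccl5 were not matched. For 5 of the 7 the window ends where the annotated gene begins. For Cd3d and Cd3g the table uses a start inside the gene, so that the Cd3g window reaches into its gene and the Cd3d window lies wholly within its gene. Both strands were searched for AGGAAG, a form of the ETS motif, TGTGGT, the core bound by RUNX factors, TCACAC, a T-box core, and TTCNNNGAA, the palindrome bound by STAT factors. Prf1 held 2 matches to AGGAAG and 1 to TGTGGT, Cd2 held 1 to TGTGGT, and Cd8a held none of the 4 motifs. AGGAAG was found in 5 of the 7 windows, and in 29.5% of the 33469 windows of this length in the RefSeq table. TGTGGT was found in 2 of the 7 and in 14.5% of all windows, TTCNNNGAA in 1 of the 7 (Cd3d, where it adjoins a match to AGGAAG and shares no base with it) and in 7.67%, and TCACAC in none of the 7 and in 11.6%. These are matches of letters and not measured binding.

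Cd5, Klrd1, Cd3d and Cd8a were close to the low end of the array, while Ccl5 averaged above the median of all genes (7.42). All levels are log2 of the RMA intensity, a background-corrected and quantile-normalized brightness, and probe sets differ in brightness for reasons other than the amount of RNA, so levels were compared between samples and not between genes. A floor of 5.15 was taken from 33 genes not expected in liver, such as olfactory and taste receptors, as the 75th percentile of their mean levels. Of the members, 8 averaged above this floor and 2, Cd5 at 4.51 and Klrd1 at 5.14, averaged below it. Cd3d at 5.22 and Cd8a at 5.27 were just above it. Cd3g averaged 5.71, Cd3e 6.08, Cd2 6.18, Il2rb 7.03, Prf1 7.20 and Ccl5 9.34 over the 49 arrays. For the dim members a change in the RNA can be larger than the change in intensity.

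The labels give liver as the tissue, and the published methods speak of RNA from hepatocytes. The 11 hepatocyte markers averaged 14.07 to 14.12 in the group 5 livers at day 14, against 14.14 to 14.22 in the group 2 livers. The 12 pan-leukocyte genes averaged 7.68 to 7.98 in group 5 and 7.94 to 8.32 in group 2 on that day, so transcripts of white blood cells were present along with those of hepatocytes. In a bulk sample such as this, fewer cells of a type and less RNA per cell cannot be told apart. The median intensity was alike across the 49 arrays (6.34 to 6.43 on the log2 scale), and the median correlation of an array with the others of its group was at least 0.991 in each group. The day is the only label of a possible batch, so any batch and the day cannot be told apart.

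**Figure D1:**
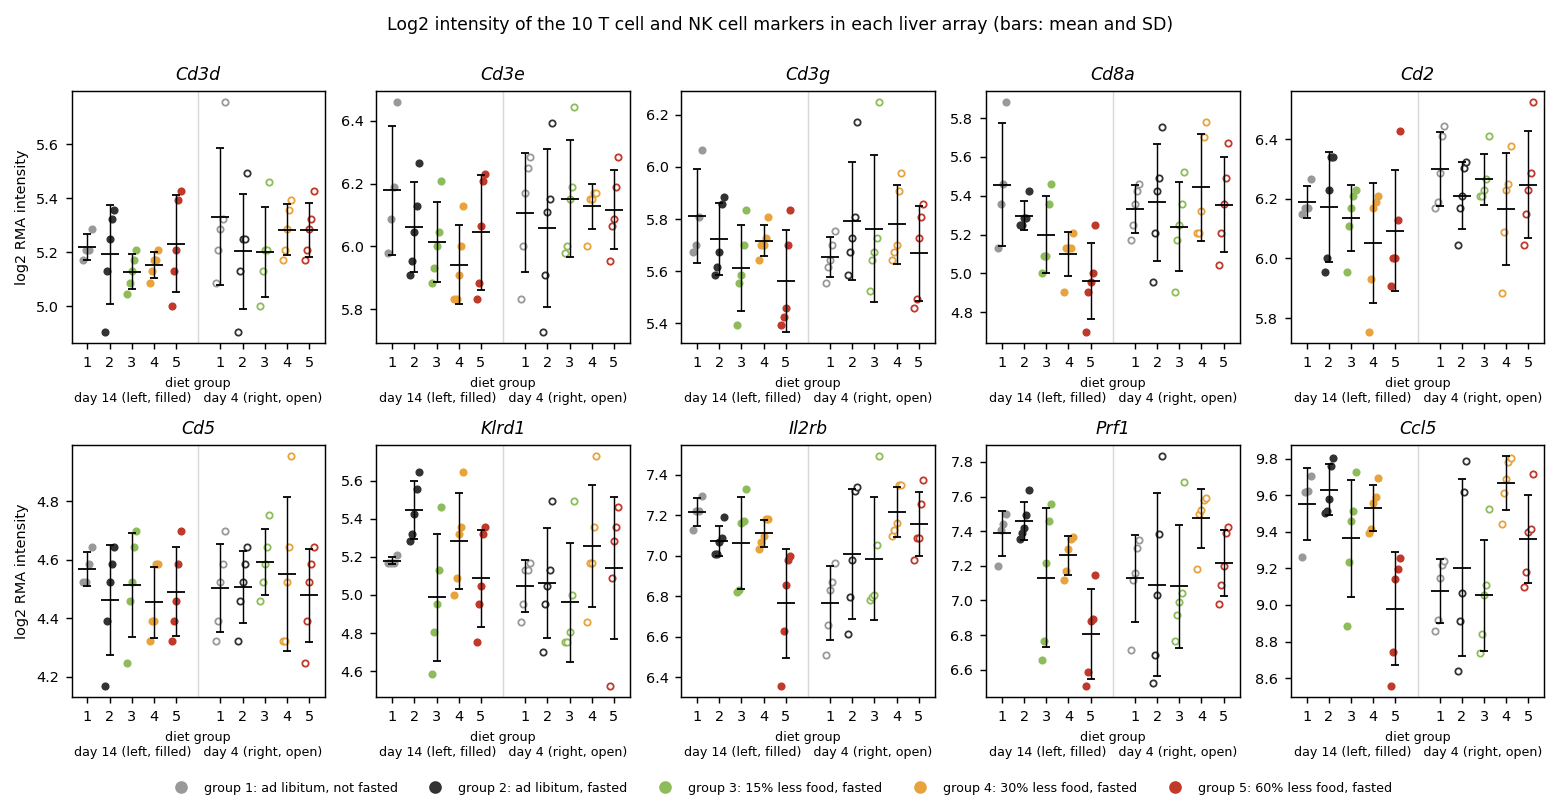
Log2 RMA intensity (y axis, with its own range in each panel) of the 10 members in the 49 arrays by diet group (x axis), with day 14 on the left (filled points) and day 4 on the right (open points). Each point is 1 rat and the bars give the mean and SD. Prf1, Ccl5 and Il2rb in group 5 at day 14 lie below all 5 group 2 livers of that day, for Il2rb only just. Cd3d, Cd3e, Cd3g, Cd2, Cd5 and Klrd1 overlap between groups 5 and 2. For Cd8a the highest group 5 liver equals the lowest group 2 livers.

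Group 5 against group 2 at day 14 asks what 60% less food for 2 weeks did on top of the overnight fast. Of the 10 members, 5 passed the test as lower and 0 as higher (limma, Benjamini-Hochberg adjusted p under 0.1), beside 19.8% of all genes called in either direction and 10.9% called as lower. The median difference of the members was -0.23 on the log2 scale, against 0.00327 over all genes. Groups 1, 3, 4 and 5 were all set against the same group 2 arrays of their day, so these comparisons share them.

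No chain of the T cell receptor complex passed the test. Cd3d, the delta chain, read 5.21, 5.13, 5.39, 5.00 and 5.43 in the 5 group 5 livers at day 14, against 5.36, 5.13, 4.91, 5.32 and 5.25 in the 5 group 2 livers. Cd3e, the epsilon chain, read 6.23, 5.83, 6.21, 5.88 and 6.07 in group 5, against 6.13, 6.27, 5.91, 6.04 and 5.95 in group 2. Both sets of values overlapped over most of their range. The differences were 0.04 for Cd3d (95% interval -0.19 to 0.27) and -0.02 for Cd3e (-0.23 to 0.20). Cd3g, the gamma chain, read 5.70, 5.46, 5.83, 5.39 and 5.43 in group 5, against 5.88, 5.58, 5.67, 5.61 and 5.86 in group 2. Here 3 of the group 5 livers lay below all group 2 livers, and the difference of -0.16 (-0.38 to 0.06) did not pass the test (limma, adjusted p = 0.357). The genes of the 3 chains lie next to each other on chromosome 8 of GRCr8, with 485 bases between Cd3g and Cd3d and 10504 between Cd3d and Cd3e. The second probe set of Cd3e averaged 4.04, below the floor, and differed by 0.02.

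Cd8a, the alpha chain of the CD8 co-receptor, was lower. It read 5.00, 4.91, 5.25, 4.95 and 4.70 in the 5 group 5 livers at day 14, against 5.29, 5.43, 5.25, 5.25 and 5.29 in the 5 group 2 livers. The highest group 5 liver equalled the lowest group 2 livers, and the other 4 lay below them. The difference was -0.34 (SE 0.09, limma, adjusted p = 0.0299), a ratio of 0.792. A second probe set of Cd8a read 4.95, 5.04, 4.70, 4.95 and 4.81 in group 5, against 5.67, 5.39, 5.13, 4.91 and 5.32 in group 2, and differed by -0.39 (adjusted p = 0.0613 with all probe sets tested). Its groups overlapped through 1 group 2 liver. The third probe set averaged 4.79, below the floor, and differed by -0.05.

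The adhesion receptor Cd2, which binds CD48 in rodents, and Cd5, which dampens receptor signalling, did not pass the test. Cd2 read 6.0, 6.0, 6.43, 5.91 and 6.13 in group 5 at day 14, against 6.34, 6.34, 6.0, 6.23 and 5.95 in group 2, a difference of -0.08 (95% interval -0.33 to 0.17). Cd5 ranged from 4.32 to 4.70 in group 5 and from 4.17 to 4.64 in group 2, a difference of 0.03 (-0.19 to 0.25). Over all diet comparisons with group 2 at both days, the differences of Cd3d, Cd3e, Cd3g, Cd2 and Cd5 lay between -0.16 and 0.13.

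Klrd1, or CD94, the partner of the NKG2 receptors on NK cells, was lower in group 5. It read 5.32, 5.36, 4.75, 5.04 and 4.95 in the group 5 livers at day 14, against 5.55, 5.64, 5.43, 5.29 and 5.32 in the group 2 livers. Of the group 5 livers, 3 lay below every group 2 liver and 2 overlapped with them. The difference was -0.36 (SE 0.12, limma, adjusted p = 0.0663), a ratio of 0.779, in a probe set whose mean over all arrays is under the floor. Leaving out 1 array at a time, its adjusted p ranged from 0.0379 to 0.144 and was no longer under 0.1 for 6 of the 10 arrays.

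Il2rb, the beta chain shared by the interleukin 2 and interleukin 15 receptors, was lower in group 5 without overlap. It read 6.98, 7.0, 6.63, 6.86 and 6.36 in the group 5 livers at day 14, against 7.07, 7.09, 7.01, 7.01 and 7.19 in the group 2 livers. The highest group 5 liver lay just under the lowest group 2 livers. The difference was -0.31 (SE 0.11, limma, adjusted p = 0.0986), a ratio of 0.807. Leaving out 1 array at a time, the adjusted p ranged from 0.0631 to 0.192, and it was no longer under 0.1 for 8 of the 10 arrays.

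Prf1, the pore-forming protein of cytotoxic granules, was lower in group 5 without overlap, with the largest estimate of the members. It read 7.15, 6.89, 6.58, 6.88 and 6.51 in the group 5 livers at day 14, against 7.49, 7.64, 7.42, 7.39 and 7.36 in the group 2 livers. All 5 group 5 livers lay below all 5 group 2 livers. The difference was -0.66 (SE 0.12, limma, adjusted p = 0.00279), a ratio of 0.635 with a 95% interval of 0.534 to 0.756.

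Ccl5, a chemokine made by activated T cells and NK cells, had an estimate within the error of that of Prf1. It read 9.19, 9.26, 8.56, 9.14 and 8.74 in the group 5 livers at day 14, against 9.76, 9.80, 9.51, 9.58 and 9.50 in the group 2 livers. The groups did not overlap. The difference was -0.65 (SE 0.13, limma, adjusted p = 0.00675), a ratio of 0.637 with an interval of 0.520 to 0.779. Prf1, Il2rb and Ccl5 were thus the 3 members whose group 5 livers all lay below the group 2 livers at day 14, which held for 7.06% of all genes. The group 5 livers 3 and 5 were the lowest of that group for Prf1, Il2rb and Ccl5.

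**Figure D2:**
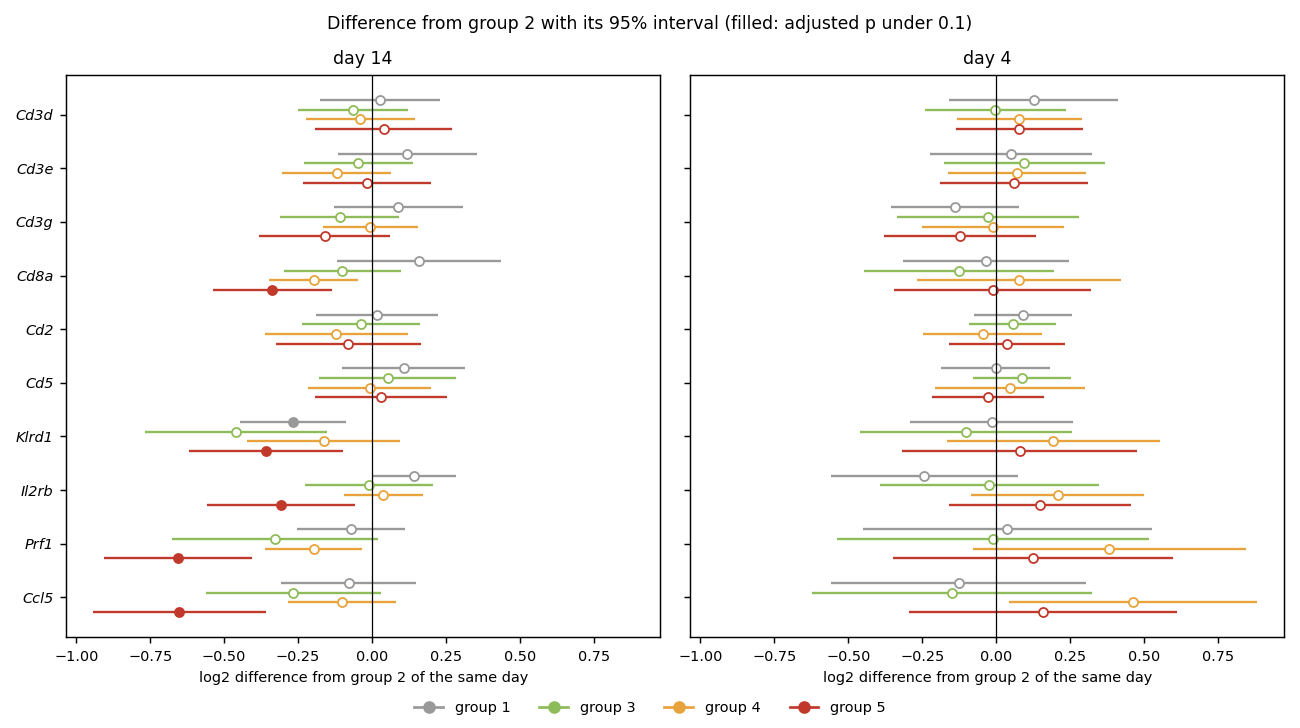
Log2 difference of each diet group from group 2 of the same day (x axis) for the 10 members (y axis), at day 14 on the left and day 4 on the right, with 95% intervals from limma. Filled points passed at an adjusted p under 0.1: Cd8a, Klrd1, Il2rb, Prf1 and Ccl5 in group 5 at day 14, and Klrd1 in group 1 at day 14.

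No member passed the test in group 3 or group 4 at day 14. In group 4, 0 of 10 members passed, beside 12.8% of all genes. At an unadjusted p under 0.05 there were 2 members, beside 21.9% of all genes. These were Cd8a, at -0.20 (SE 0.07, limma, adjusted p = 0.109), and Prf1, at -0.20 (SE 0.08, adjusted p = 0.139). Cd8a read 4.91, 5.13, 5.13, 5.13 and 5.21 in the group 4 livers. In group 3, 0 of 10 passed, beside 6.54% of all genes. At an unadjusted p under 0.05 there was 1 member, beside 16.5% of all genes. That was Klrd1, which read 4.58, 5.46, 4.81, 4.95 and 5.13 in group 3 and differed by -0.46 (SE 0.14, limma, adjusted p = 0.103). Prf1 in group 3 spread widely, with 2 livers at 6.66 and 6.77 and 3 at 7.22, 7.46 and 7.55.

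The order of the group means at day 14 differed between the members. The means of Cd8a were 5.30 in group 2, 5.20 in group 3, 5.10 in group 4 and 4.96 in group 5, each overlapping with the next. Those of Prf1 were 7.46, 7.13, 7.26 and 6.80 in groups 2, 3, 4 and 5, and those of Ccl5 were 9.63, 9.36, 9.53 and 8.98. Thus group 3 lay below group 4 for both genes, and neighbours in the order overlapped. Il2rb was level over groups 2, 3 and 4 (7.07, 7.06 and 7.11) and was lower only in group 5 (6.76), whose highest livers overlapped with group 3.

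A straight line over the food reduction of groups 2 to 5 at day 14 was tested in the same way. Of the 10 members, 4 passed with a falling slope, beside 24% of all genes called and 13.2% with a falling slope. Per 10 percentage points less food, Ccl5 changed by -0.10 (SE 0.02, limma, adjusted p = 0.00672), Prf1 by -0.10 (SE 0.02, adjusted p = 0.00752), Cd8a by -0.06 (SE 0.01, adjusted p = 0.00979) and Il2rb by -0.05 (SE 0.02, adjusted p = 0.0562). None of the 4 calls held without group 5. Over groups 2 to 4 alone, 0 members passed, beside 14.3% of all genes, and the slopes were -0.07 for Cd8a (SE 0.03, adjusted p = 0.164), -0.07 for Prf1 (SE 0.05, adjusted p = 0.512), -0.03 for Ccl5 (SE 0.05, adjusted p = 0.746) and 0.01 for Il2rb (SE 0.03, adjusted p = 0.863). The slope of Cd8a was thus no smaller without group 5, though its error was larger, and those of Prf1, Ccl5 and Il2rb were closer to 0. At day 4 no slope over groups 2 to 5 passed, beside 8.82% of all genes. None had an unadjusted p under 0.05, beside 19.3% of all genes.

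Group 1 against group 2 compares livers without and with the overnight fast at the same food intake. At day 14, 1 of 10 members passed, beside 13.2% of all genes called and 5.92% called as lower. Klrd1 read 5.21, 5.17, 5.17 and 5.17 in the 4 group 1 livers, against 5.55, 5.64, 5.43, 5.29 and 5.32 in the 5 group 2 livers. The difference was -0.27 (SE 0.08, limma, adjusted p = 0.0707), a call that was lost without any 1 of the 4 group 1 livers. At day 4, 0 of 10 passed, beside 21.3% of all genes, and Klrd1 read 4.86 to 5.17 in group 1 and 4.70 to 5.49 in group 2.

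Since Klrd1 was at its highest in group 2 at day 14, the restricted groups were also set against the unfasted group 1, a comparison in which the fast differs too and which was chosen after seeing the data. In group 5 at day 14, 4 members were lower than in group 1, beside 34.1% of all genes called. These were Prf1 at -0.58 (limma, adjusted p = 0.00587), Ccl5 at -0.57 (adjusted p = 0.0170), Cd8a at -0.50 (adjusted p = 0.0275) and Il2rb at -0.45 (adjusted p = 0.0199). Klrd1 differed by -0.09 (adjusted p = 0.631), so in group 5 it passed against the fasted control and not against the unfasted one.

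At day 4 no difference of a restricted group from group 2 passed the test. No member was called in group 3, 4 or 5, beside 0.253%, 5.43% and 7.14% of all genes. The count at an unadjusted p under 0.05 was 0, 1 and 0, beside 10.5%, 16.6% and 18% of all genes. The 1 was Ccl5 in group 4. It read 9.61, 9.69, 9.78, 9.44 and 9.81 in the 5 group 4 livers, against 9.06, 9.79, 9.62, 8.91 and 8.64 in the 5 group 2 livers, a difference of 0.46 (SE 0.19, limma, adjusted p = 0.250). The group 2 livers spread over more than 1 log2 unit at day 4, and the 2 highest of them overlapped with group 4. Prf1 had the same feature, with 7.03, 7.83, 7.38, 6.69 and 6.52 in the group 2 livers at day 4 (SD 0.53) and 7.58, 7.50, 7.59, 7.18 and 7.52 in group 4 (SD 0.17). The unfasted group 1 at day 4 had a narrower spread. Against it, Ccl5, Il2rb and Prf1 were higher in group 4, by 0.59, 0.45 and 0.35 (limma, adjusted p = 0.00177, 0.00690 and 0.0734). In that comparison 22.7% of all genes were called in either direction. Il2rb was also higher in group 5, by 0.39 (limma, adjusted p = 0.0209), beside 23.8% of all genes called in either direction.

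Whether the diet differences changed with time was tested as an interaction, the difference from group 2 at day 14 minus that at day 4. None of the 4 interactions called a member. For group 5, where 2.04% of all genes were called, 3 members had an unadjusted p under 0.05. Ccl5 had -0.81 (SE 0.26, limma, adjusted p = 0.157), Prf1 -0.78 (SE 0.26, adjusted p = 0.173) and Il2rb -0.46 (SE 0.19, adjusted p = 0.296). In groups 1, 3 and 4, 0%, 0.591% and 0.134% of all genes were called. There, 1, 0 and 2 members had an unadjusted p under 0.05, beside 6.35%, 9.92% and 9.83% of all genes. So the members' differences at day 14 and day 4 were not shown to differ after adjustment over all genes.

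Within 1 diet, day 14 was set against day 4. No member passed in any of the 5 groups, where 0%, 0.00703%, 12.8%, 5.47% and 6.71% of all genes were called in groups 1 to 5. At an unadjusted p under 0.05 there were 2, 2, 0, 3 and 4 of the 10 members. The shares of all genes at that unadjusted threshold were 14.9%, 8.65%, 24.6%, 17% and 19%. For Ccl5, Il2rb, Prf1, Cd8a, Klrd1, Cd3e and Cd3g the estimates were positive in group 1 and negative in group 5. Cd3d and Cd2 were negative in both and Cd5 was positive in both, and the difference between these groups was not tested. Ccl5 read 9.26, 9.62, 9.71 and 9.62 in group 1 at day 14, against 9.24, 8.92, 8.86, 9.22 and 9.15 at day 4 (0.48, SE 0.11, limma, adjusted p = 0.142). Il2rb read 7.13 to 7.29 in group 1 at day 14 and 6.51 to 6.97 at day 4 (0.45, SE 0.09, adjusted p = 0.119). In group 5 the same difference was -0.38 for Ccl5 (SE 0.15, adjusted p = 0.194), -0.39 for Il2rb (SE 0.13, adjusted p = 0.115), -0.41 for Prf1 (SE 0.13, adjusted p = 0.107) and -0.39 for Cd8a (SE 0.13, adjusted p = 0.114). In the control group 2, the means at day 4 and day 14 were 9.20 and 9.63 for Ccl5 and 7.09 and 7.46 for Prf1. Those of Il2rb were 7.01 and 7.07, and those of Cd8a 5.37 and 5.30. The interaction of group 5 given above takes in the changes of both groups. Group 5 at day 14 held the lowest group mean of the 10 groups and days for Cd3g, Cd8a, Prf1, Il2rb and Ccl5, and group 4 at day 4 held the highest for Prf1, Il2rb and Ccl5.

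Prf1, Klrd1, Il2rb and Ccl5 varied together from rat to rat more than the CD3 chains, Cd8a, Cd2 and Cd5 did, as a description with no test. After the mean of each group and day was taken out, Pearson's r over the 49 arrays was 0.91 for Prf1 and Ccl5, 0.79 for Il2rb and Ccl5 and 0.74 for Prf1 and Il2rb. The 6 pairs among Prf1, Klrd1, Il2rb and Ccl5 had r between 0.58 and 0.91. The 15 pairs among the CD3 chains, Cd8a, Cd2 and Cd5 had r between 0.12 and 0.51, and the 24 pairs across had r between -0.25 and 0.48. Dim probe sets can leave less room for a correlation, and the part of brightness in these values was not tested. Klrd1 averaged 5.14, below the floor, and had r of 0.58 to 0.64 with Prf1, Il2rb and Ccl5. All values of 1 array share its RNA sample and normalization. Of the genes that are no members, the mean of the 10 members was followed most closely over the 49 arrays by Arhgdib (r = 0.82), Gzmm (0.78), Rac2 (0.78), Itgb2 (0.77) and Sash3 (0.77). The values were not scaled for this mean, so members with a larger SD over the arrays weigh more in it, such as Ccl5 (0.34) against Cd3d (0.15). With the means of the groups and days taken out, Arhgdib (0.78), Itgb2 (0.76), Spn (0.75), Rac2 (0.75) and Plac8 (0.75) came first. Gzmm is a granzyme, Itgb2 the common beta chain of the leukocyte integrins and Spn the surface protein CD43.

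**Figure D3:**
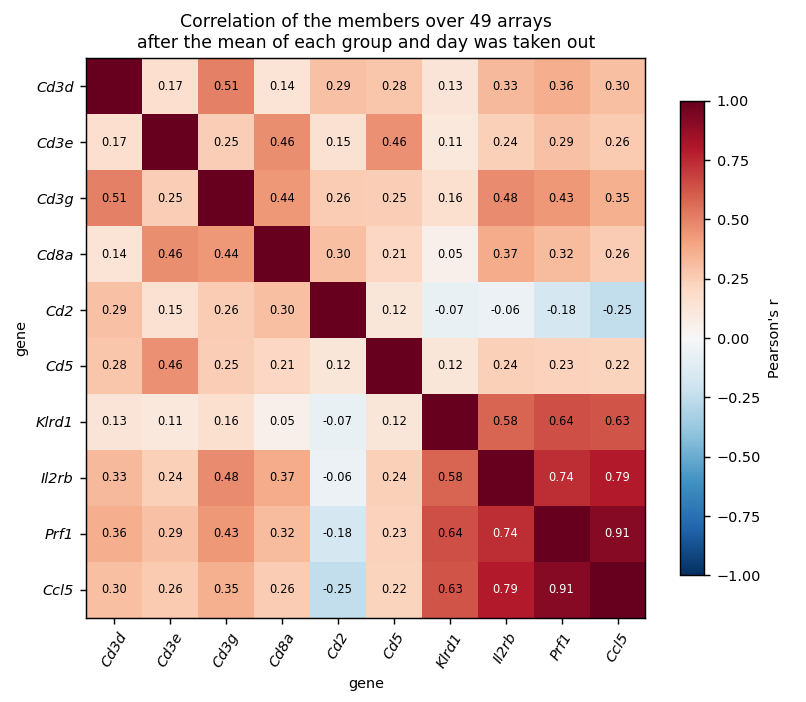
Pearson's r between each pair of members (rows and columns, in the same order) over 49 arrays after the mean of each group and day was taken out, with the colour scale from -1 to 1. The block of Klrd1, Il2rb, Prf1 and Ccl5 holds r of 0.58 to 0.91, and all other pairs are at 0.51 or below.

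Few other genes of T cells and NK cells passed the test in group 5 at day 14, and the counts were near the 10.9% of all genes called as lower. Of 23 further T cell genes measured, 3 were lower and 0 higher, with a median of -0.06. These were Il7r, the interleukin 7 receptor (-0.48, limma, adjusted p = 0.0313), the kinase Lck (-0.30, adjusted p = 0.0123) and Cd7 (-0.24, adjusted p = 0.0963). Of 28 further NK cell and cytotoxic genes, 18 averaged above the floor. The list averaged 5.86 to 5.96 in group 5 and 5.95 to 6.14 in group 2. Of the 28 genes, 4 were lower and 0 higher, with a median of -0.13. They included the inhibitory receptor Klrg1 (-0.74, adjusted p = 0.00928), Klrb1a (-0.43, adjusted p = 0.0484) and Gzmm (-0.31, adjusted p = 0.0966). Of 18 partners of Il2rb and of the chemokine axis of T cells, 3 were lower and 0 higher. Stat5b, which passes on the interleukin 2 signal but also that of growth hormone in hepatocytes, differed by -0.92 (adjusted p = 0.00101), Il2rg, the common gamma chain, by -0.43 (adjusted p = 0.0366) and Stat5a by -0.26 (adjusted p = 0.0391).

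Among markers of other white blood cells, the pan-leukocyte and B cell lists had shares of lower genes well above the 10.9% of all genes, and the Kupffer cell and neutrophil lists did not. Of 12 pan-leukocyte genes, 7 were lower and 0 higher, with a median of -0.26, among them Coro1a (-0.64, limma, adjusted p = 0.00235), Cd53 (-0.49, adjusted p = 0.0227) and Ptprc, or CD45 (-0.37, adjusted p = 0.0778). Of 8 B cell and plasma cell markers, 3 were lower and 0 higher, with a median of -0.29. These were Cd37 (-0.46, adjusted p = 0.0100), Ms4a1, or CD20 (-0.40, adjusted p = 0.0626), and the kinase Blk (-0.39, adjusted p = 0.0130), and the list averaged 6.24 to 6.53 in group 5 and 6.50 to 6.70 in group 2. Of 13 Kupffer cell and macrophage markers, 1 was lower, Adgre1 (-0.39, adjusted p = 0.0611), while Cd5l had the larger difference of -0.44 and did not pass (adjusted p = 0.113). This list averaged 9.69 to 10.17 in group 5 and 9.83 to 10.35 in group 2. Of 8 neutrophil and dendritic cell markers, 1 was lower, S100a9 (-0.93, adjusted p = 0.00157), and S100a8 differed by -0.25 without passing (adjusted p = 0.120). Of 12 antigen presentation genes, 3 were lower, Tap2 (-0.55), Tap1 (-0.47) and Nlrc5 (-0.26), with a median of -0.41. The part of the other white blood cells in the members' differences was not tested.

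Outside the white blood cells, the calls went both ways. Of 5 erythroid genes, 2 were lower, Hbb, a globin (-2.14, limma, adjusted p = 0.000505), and Alas2, which starts haem synthesis in red cell precursors (-1.98). The erythroid list averaged 6.63 to 7.12 in group 5 and 7.47 to 7.96 in group 2, without overlap, and the part of blood left in the liver in the members' differences was not tested. Of 10 liver endothelial markers, 1 was higher, Lyve1 (0.30, adjusted p = 0.0795), and 0 were lower, with a median of 0.04, and Ehd3 differed by 0.28 without passing (adjusted p = 0.244). Of 11 hepatocyte markers, Apoa1 (-0.62) and Fga (-0.17) were lower and Cps1 (0.23) was higher, with a median of -0.02. Of 12 cell cycle genes, Ccnb2 was lower (-0.48) and Pcna higher (0.28).

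**Figure D4:**
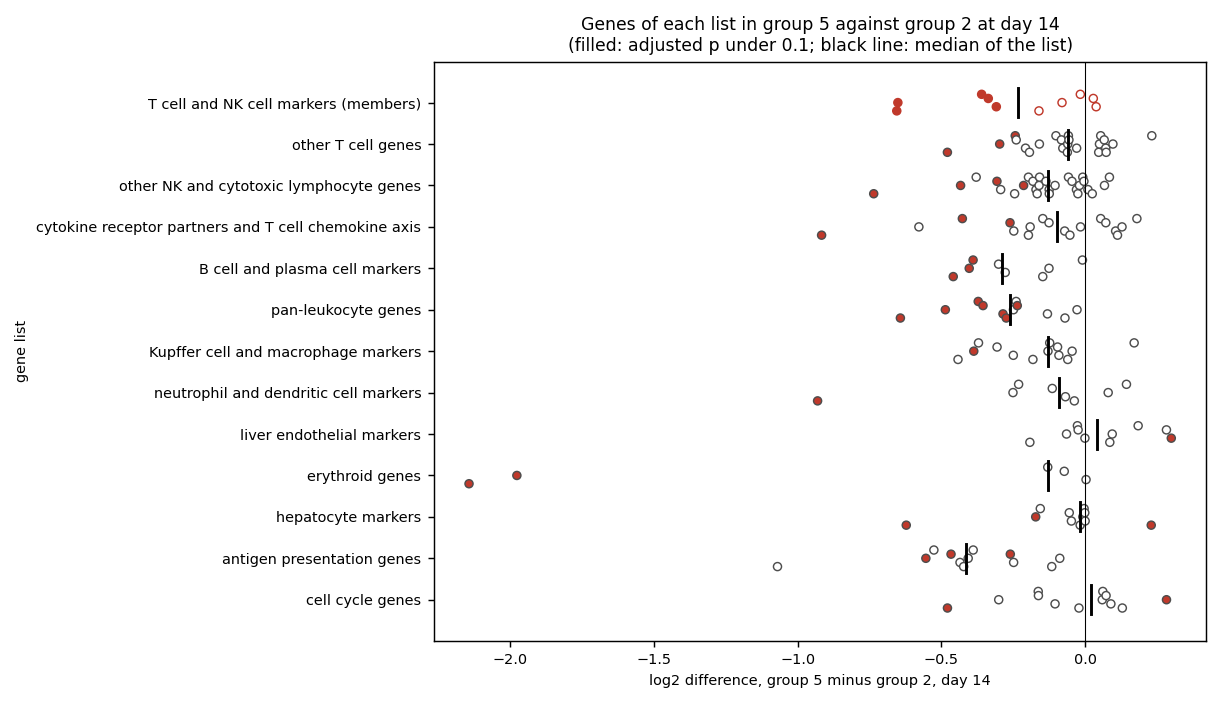
Log2 difference between group 5 and group 2 at day 14 (x axis) for each gene of the members and of the 12 other lists (y axis). Each point is 1 gene, filled where the adjusted p was under 0.1, and the black line is the median of the list: -0.23 for the members, -0.26 for the pan-leukocyte genes, -0.29 for the B cell markers and -0.02 for the hepatocyte markers.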

How the data were processed

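The members and gene lists were chosen with earlier results of these data known. The authors checked the scans in Affymetrix Expression Console and normalized them by RMA (R 3.0.1, affy 1.38.1). The deposited intensities are linear whole numbers for 31042 probe sets, with no genome build given in the sources used here, and were turned into log2 here. At that rounding, 1 unit is a log2 step of 0.06 for Cd5 and 0.002 for Ccl5. Probe sets with several symbols (436) or none (9780) were left out. Of the probe sets of a gene, the one with the highest mean was used. No 2 arrays held identical values.

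Each comparison was fitted on its own groups with limma 3.58.1 (lmFit, eBayes; R 4.3.3), with Benjamini-Hochberg adjustment over 14217 genes and calls at an adjusted p under 0.1. The false discovery rate of 0.1 and group 2 as control follow the methods of the study, whose own gene model (EBarrays) was not used here. Rats were the replicates, numbered in the order of their records, and the number of arrays limits the precision. All 10 members were named, and of each other list the called genes with the largest differences in group 5 at day 14 (for other cell types also the 2 largest, called or not), with the 5 genes most alike to the mean of the members. The fits were tested on simulated data. Alternatives were a threshold of 0.05, 1 fit of all groups, a filter on dim probe sets, all probe sets, mean of probe sets, repeated quantile normalization, array weights and leaving out each array, and, chosen after seeing the data, group 1 as the control and the trend without group 5.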

Additional observations from a re-analysis of the deposited data

Results flagged for a closer look

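In 100 groups of 4 or 5 arrays (10 members in 10 groups and days), 7 held 1 array that stood far from the others by Dixon's ratio, where chance alone gives about 1 in 20 groups. Array 1 of group 3 at day 4 was the highest for Cd2 (6.41, the others 6.21 to 6.27) and for Cd3g (6.25, the others 5.52 to 5.73). In group 4, Cd3e was lowest in 1 array at day 4 (6.0, the others 6.15 to 6.17), Prf1 was lowest in another at day 4 (7.18, the others 7.50 to 7.59), and Cd8a was lowest in 1 array at day 14 (4.91, the others 5.13 to 5.21). In group 2 at day 14, Cd8a was highest in array 2 (5.43, the others 5.25 to 5.29). In group 1 at day 14, Klrd1 was highest in array 1 (5.21), with the other 3 at the same whole-number intensity (5.17).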

How the results depend on the processing

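In group 5 against group 2 at day 14, 5 members were called, and 3 at an adjusted p under 0.05 (Cd8a, Prf1 and Ccl5). Leaving out 1 array gave 3 to 5, and Prf1, Ccl5 and Cd8a were called whichever array was left out and in each alternative. The Il2rb call was lost with all probe sets (adjusted p = 0.103) and array weights (0.160), and the Klrd1 call with 1 fit of all groups (0.116), group 1 as control (0.631) and the dim filter, which removes its probe set. The 3 were reached without array 1, 2 or 3 of group 2 or array 3, 4 or 5 of group 5. The Klrd1 call in group 1 at day 14 was lost (0 called) at 0.05, with 1 fit of all groups, with the dim filter and without each of the 4 group 1 arrays or array 1 or 2 of group 2. The 4 falling slopes at day 14 were 3 at 0.05, with array weights (Il2rb, adjusted p = 0.134) and without array 3 or 5 of group 5 (Il2rb, 0.139 and 0.207), and 0 over groups 2 to 4, where the slope of Il2rb turned to 0.0128. A single call (1 member) appeared in group 3 at day 14 (1 fit of all groups, quantile normalization or without array 2 of group 3) and in group 4 at day 14 (dim filter, quantile normalization, array weights, group 1 as control or without array 5 of group 4). In group 4 at day 4, 1 was called with 1 fit of all groups or without array 2 of group 2, and 3 with group 1 as control, which gave 1 in group 5. Between the days, 2 were called in group 1 with all probe sets or array weights and 1 without array 4 of day 4. In group 4, 1 was called without array 4 of day 4 or array 2 of day 14. In group 5, 2 were called with 1 fit of all groups or quantile normalization, and 1 with the dim filter, mean of probe sets, array weights or without array 4 of day 4 or array 1 or 3 of day 14. The interaction of group 5 called 2 with 1 fit of all groups, and 0 to 2 when an array was left out (2 without array 2 and 1 without array 3 of group 2 at day 4). The cause of these changes was not tested. No paired analysis was possible because the labels give each rat its own number and no number is shared between groups. Low intensity limits what can be seen of Cd5, Klrd1, Cd3d and Cd8a.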
